A study of Homo sapiens with 6 samples.

Results

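The translational efficiency of 4825 genes was compared between 786-O cells carrying PHYHD1-WT and 786-O cells carrying the empty vector, EV. A gene was included when its value was 10 or more in each of 4 libraries, the RNA-seq and Ribo-seq libraries of WT and of EV, which held for 24.5% of the 19669 named genes. For each gene the log2 ratio of WT to EV, after adding 1 to both values, was taken in RNA-seq and in Ribo-seq. The RNA-seq ratio was then subtracted from the Ribo-seq ratio. A positive difference means more footprints per mRNA in WT, and a difference of 1 is 2-fold. The study held 6 libraries, 1 per label and assay, from this clear cell renal carcinoma line, which lacks functional VHL. WT is the cell line with PHYHD1, EV the line with the vector alone, and MT, shown beside them, the line with a PHYHD1 lacking segment 107 to 130 by the series title. The design text instead calls MT the overexpressing cells and WT untreated. It names 3 dishes per condition. The sources used here do not say whether the dishes were pooled into each library, which promoter drove PHYHD1 or whether each line was 1 clone. With 1 library per label and assay there was no replicate, so no test, standard error or p-value could be given, and each statement compares libraries rather than conditions. WT and MT are set against the same EV library, so an MT value on the same side of EV as WT is not a separate observation.

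Ribosome profiling sequences the short mRNA fragments that ribosomes shield from nuclease, and the density of these footprints on a coding sequence follows how many ribosomes are on it. Dividing footprints by mRNA gives translational efficiency, which separates a gene with more mRNA from a gene whose mRNA carries more ribosomes. Initiation is the usual point of control. Growth signals through mTOR act mainly on mRNAs that begin with a terminal oligopyrimidine tract, while uORFs, iron-responsive elements and RNA-binding proteins act on smaller groups. Because RNA-seq enters the difference with a minus sign, a gene whose mRNA is higher with no more footprints scores as less efficiently translated. Which assay carries the difference is therefore reported for each gene.

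PHYHD1, a member of the iron- and 2-oxoglutarate-dependent dioxygenase family, was measured at 0.092 FPKM in EV against 118 in WT and 109.5 in MT by RNA-seq. The EV library listed 0 TPM of its footprints, against 222 TPM for WT and 905 TPM for MT. Both libraries labelled WT thus carried PHYHD1, as the series title has it and the design text does not. PHYHD1 was under the minimum in EV and is not among the 4825 genes. Of 12 markers of the renal line, 7 were at 10 or more in all 4 libraries, PAX8, KRT8, KRT18, VIM, CDH6, NNMT and CAV1, and EPCAM and LOX were under 1. The 12 summed to between 2455 and 2909 in a library. The 12 markers of blood, endothelium, fibroblasts, liver and differentiated tubule summed to between 0.981 and 2.77, and 7, with CD3E, PECAM1, VWF, ALB and UMOD among them, were at 0 in all 4. Column sums were 459938 and 469859 in RNA-seq, read as FPKM, and 1000000 TPM in Ribo-seq, and the read depth is unknown.

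The distributions of the differences were narrow. The RNA-seq differences had a median of 0.01 on the log2 scale, quartiles of -0.09 and 0.12 and a standard deviation of 0.18 across genes. The Ribo-seq differences had a median of 0.03, quartiles of -0.14 and 0.20 and a standard deviation of 0.27. Translational efficiency differences had a median of 0.02, quartiles of -0.19 and 0.23 and a standard deviation of 0.33, with 2555 of 4825 genes above 0. These standard deviations mix measurement error with differences between the cells, which cannot be told apart with 1 library. They ran from -1.64 for PTCD3 to 1.63 for FGFR1.

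In all, 39 genes differed by 2-fold or more in translational efficiency, 0.808% of the 4825. Of these 18 were higher in WT (0.373%) and 21 lower (0.435%). In Ribo-seq alone 13 genes passed the same limit (0.269%), 8 higher (0.166%) and 5 lower (0.104%), and in RNA-seq alone 5 did (0.104%), 3 higher (0.0622%) and 2 lower (0.0415%). All 5 of the RNA-seq genes were among the 39, whereas 7 of the 13 Ribo-seq genes were. The other 27 of the 39 passed only because both assays were added, with neither at 2-fold alone. A gene was called footprint-led where the RNA-seq difference was under 0.5 times the Ribo-seq difference in size, mRNA-led where the reverse held, and otherwise both. By this rule 19 genes were footprint-led, 7 were mRNA-led and 13 were both.

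**Figure D1:**
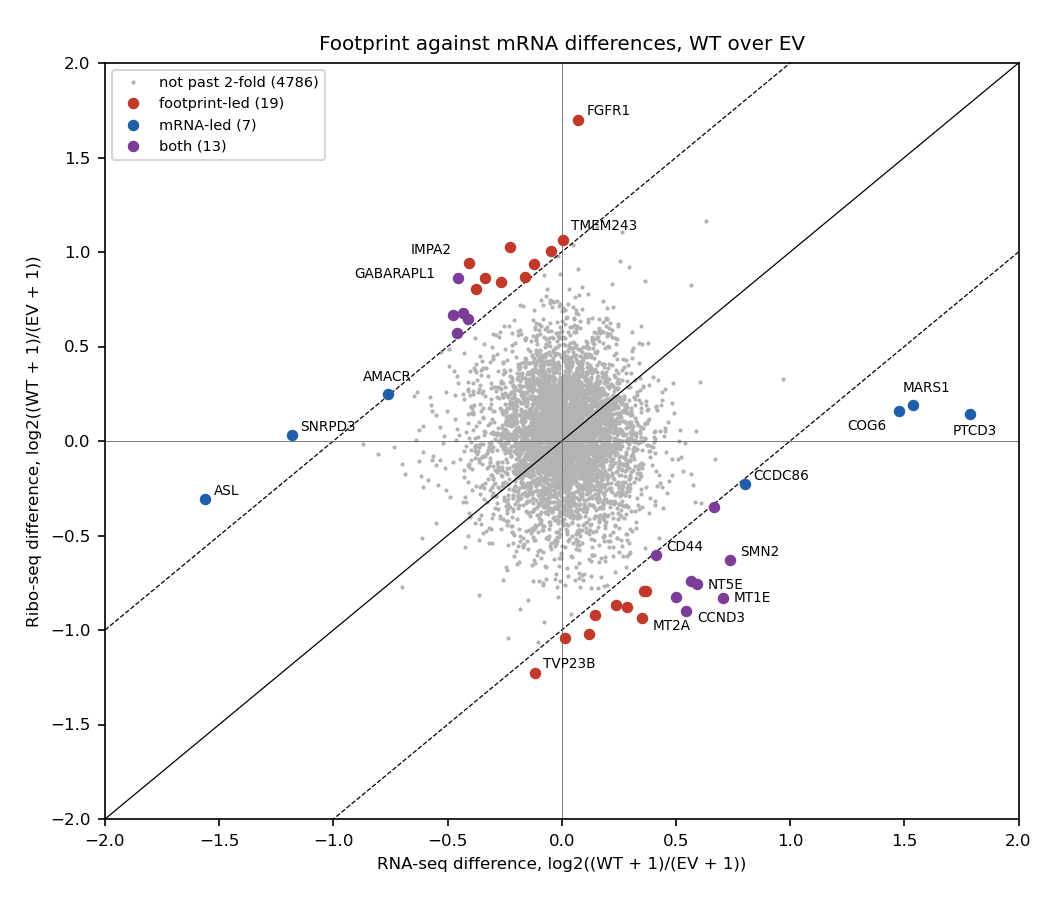
RNA-seq difference (x axis) and Ribo-seq difference (y axis) of each of the 4825 genes, WT over EV on the log2 scale. The solid line marks equal differences and the dashed lines a 2-fold difference in translational efficiency, with the 19 footprint-led genes in red, the 7 mRNA-led genes in blue and the 13 others past the limit in purple. The grey cloud of 4786 genes has no slope along the solid line.

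Of the 10 footprint-led genes that were higher in WT, FGFR1, a receptor tyrosine kinase for fibroblast growth factors, led. Its footprints were 10.4 TPM in EV against 36.0 in WT and 23.8 in MT, a 3.25-fold difference between WT and EV. Its mRNA was 23.4 FPKM in EV against 24.6 in WT and 23.5 in MT, so mRNA was level across the 3 labels while footprints were lowest in EV. The EV footprint value lies just above the minimum of 10, so the largest upward difference rests on one of the lowest values of the comparison.

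The next gene in order was IMPA2, an inositol monophosphatase, with footprints of 16.5 TPM in EV against 32.6 in WT and 25.5 in MT. Its mRNA was lower in WT, 33.5 FPKM against 44.7 in EV (57.4 in MT), which added 0.41 to a Ribo-seq difference of 0.94 and gave a translational efficiency difference of 1.35. INTS12, a subunit of the Integrator complex that cleaves nascent small nuclear RNAs, had footprints of 37.3 TPM in EV against 77.2 in WT and 67.8 in MT with mRNA of 13, 11 and 12.2 FPKM. INTS6, another Integrator subunit, stood at the opposite end. Its footprints were 18.3 TPM in EV against 10.2 in WT and 17.5 in MT, with mRNA of 14.8, 19.3 and 14.6 FPKM and a translational efficiency difference of -1.15.

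ATF2, a basic leucine zipper transcription factor, had footprints of 14.5 TPM in EV against 26.0 in WT and 26.6 in MT, with mRNA of 35.3, 27.0 and 31.0 FPKM. BLOC1S6, a subunit of the BLOC-1 complex of lysosome-related organelles, had 34.7, 67.5 and 53.9 TPM with mRNA of 27.8, 25.5 and 29.2 FPKM. In both genes the WT and MT footprint values were above EV while mRNA was lowest in WT. MBTPS1, the site-1 protease that cleaves SREBP and ATF6 precursors, had footprints of 45.3 TPM in EV against 83.5 in WT and 100.3 in MT, with mRNA of 39.9, 35.6 and 34.7 FPKM.

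TMEM243 and TMEM68, both membrane proteins, differed in footprints with mRNA nearly level. TMEM243 mRNA was 30.9 FPKM in EV and 31.0 in WT (28.5 in MT), with footprints of 16 and 34.4 TPM (27.5 in MT). TMEM68 mRNA was 23.3 FPKM in EV and 22.6 in WT (23.8 in MT), with footprints of 26.4 and 53.9 TPM (58.1 in MT). For these genes mRNA differed by 0.05 or less on the log2 scale and footprints by 1.0 or more. LYRM1 had a translational efficiency difference of 1.11, with footprints of 14.5 TPM in EV and 26.9 in WT. NOMO3, an endoplasmic reticulum membrane protein, had 1.20, but it shares almost all of its sequence with other NOMO genes, so its value is uncertain.

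Among the 9 footprint-led genes that were lower in WT, MT2A stood at the highest level. This metallothionein, a cysteine-rich protein that binds zinc and copper, had footprints of 1128 TPM in EV against 589.7 in WT and 975 in MT. Its mRNA was higher in WT, 356 FPKM against 279 in EV and 248 in MT, and the translational efficiency difference was -1.28. Its family holds near-identical copies, so reads may be split among them and the value is uncertain.

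RNF13, a membrane-bound E3 ubiquitin ligase, had footprints of 42.7 TPM in EV against 20.5 in WT and 42.6 in MT, and mRNA of 17.9, 19.6 and 18.5 FPKM. WT alone was low in footprints while the 3 mRNA values were close together. ANKFY1, an effector of the early endosome GTPase RAB5, had footprints of 34.4 TPM in EV and 16.2 in both WT and MT. Its mRNA was 14 FPKM in EV against 14.1 in WT and 16.7 in MT, so that the Ribo-seq difference of -1.04 was nearly the whole of the -1.05 in translational efficiency.

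VGLL4, a cofactor that binds TEAD factors and opposes YAP, had footprints of 19.7 TPM in EV against 11 in WT and 13.9 in MT, with mRNA of 11.5, 15.1 and 14.6 FPKM. PHC2, a Polycomb repressive complex subunit, had footprints of 23.0, 11.7 and 15.9 TPM, with mRNA of 23.3, 25.9 and 27.8 FPKM. CYB561, a cytochrome b561 of secretory vesicles, had footprints of 19.9, 10.5 and 12.8 TPM, with mRNA of 19.7, 23.5 and 21.2 FPKM. In these 3 genes footprints were lowest in WT and mRNA was lowest in EV. NAT9, an N-acetyltransferase, had a translational efficiency difference of -1.17, from footprints of 28.4 TPM in EV and 15 in WT. TVP23B, a Golgi membrane protein, had the lowest Ribo-seq difference, -1.23 (203 TPM in EV against 86.5 in WT and 261 in MT), but it has a near-identical copy and is uncertain.

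The 7 mRNA-led genes held all 5 genes that differed by 2-fold or more in RNA-seq. PTCD3, a pentatricopeptide protein of the small mitochondrial ribosomal subunit, had mRNA of 31.9 FPKM in EV against 113 in WT and 90.0 in MT. Its footprints were 27.0 TPM in EV against 29.9 in WT and 25.7 in MT. The mRNA value was thus 3.45-fold higher in WT with footprints 1.10-fold higher, and the translational efficiency difference of -1.64 was the lowest of all. Footprints across the 3 labels spanned less than 5 TPM.

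MARS1, the cytosolic methionyl-tRNA synthetase, had mRNA of 73.4 FPKM in EV against 215 in WT and 86.9 in MT, and footprints of 122, 139 and 112 TPM. Among the 22 members of the cytosolic aminoacyl-tRNA synthetase list no other gene passed 2-fold in translational efficiency. COG6, a subunit of the conserved oligomeric Golgi complex, had mRNA of 11.8 FPKM in EV against 34.5 in WT and 10.9 in MT, and footprints of 11.8, 13.3 and 11.9 TPM. For MARS1 and COG6 the WT mRNA value stood apart from both EV and MT, whereas for PTCD3 both WT and MT were far above EV.

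ASL, argininosuccinate lyase of the urea cycle, had mRNA of 40.9 FPKM in EV against 13.2 in WT and 13.7 in MT. Its footprints were 33.3 TPM in EV against 26.7 in WT and 34.9 in MT, a difference of -0.31 against -1.56 in mRNA. SNRPD3, a core Sm protein of spliceosomal particles, had mRNA of 50.1 FPKM in EV against 21.6 in WT and 20.3 in MT. Its footprints were 200.4 TPM in EV against 205 in WT and 203 in MT. In ASL and SNRPD3 the WT and MT mRNA values were close to each other and under EV, and the WT and MT differences share that EV library. Footprint values of SNRPD3 were level across the labels.

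CCDC86, a nucleolar protein, and AMACR, the racemase of branched-chain fatty acid and bile acid oxidation, completed the class. CCDC86 had mRNA of 14 FPKM in EV and 25.2 in WT (18.2 in MT) and footprints of 48.3 and 41.1 TPM (44.2 in MT). AMACR had mRNA of 50.2 FPKM in EV and 29.2 in WT (60.2 in MT) and footprints of 52.5 and 62.6 TPM (50.2 in MT). AMACR is also part of a readthrough name and lay nearest the limit, at 1.01, so it is uncertain on both counts.

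**Figure D2:**
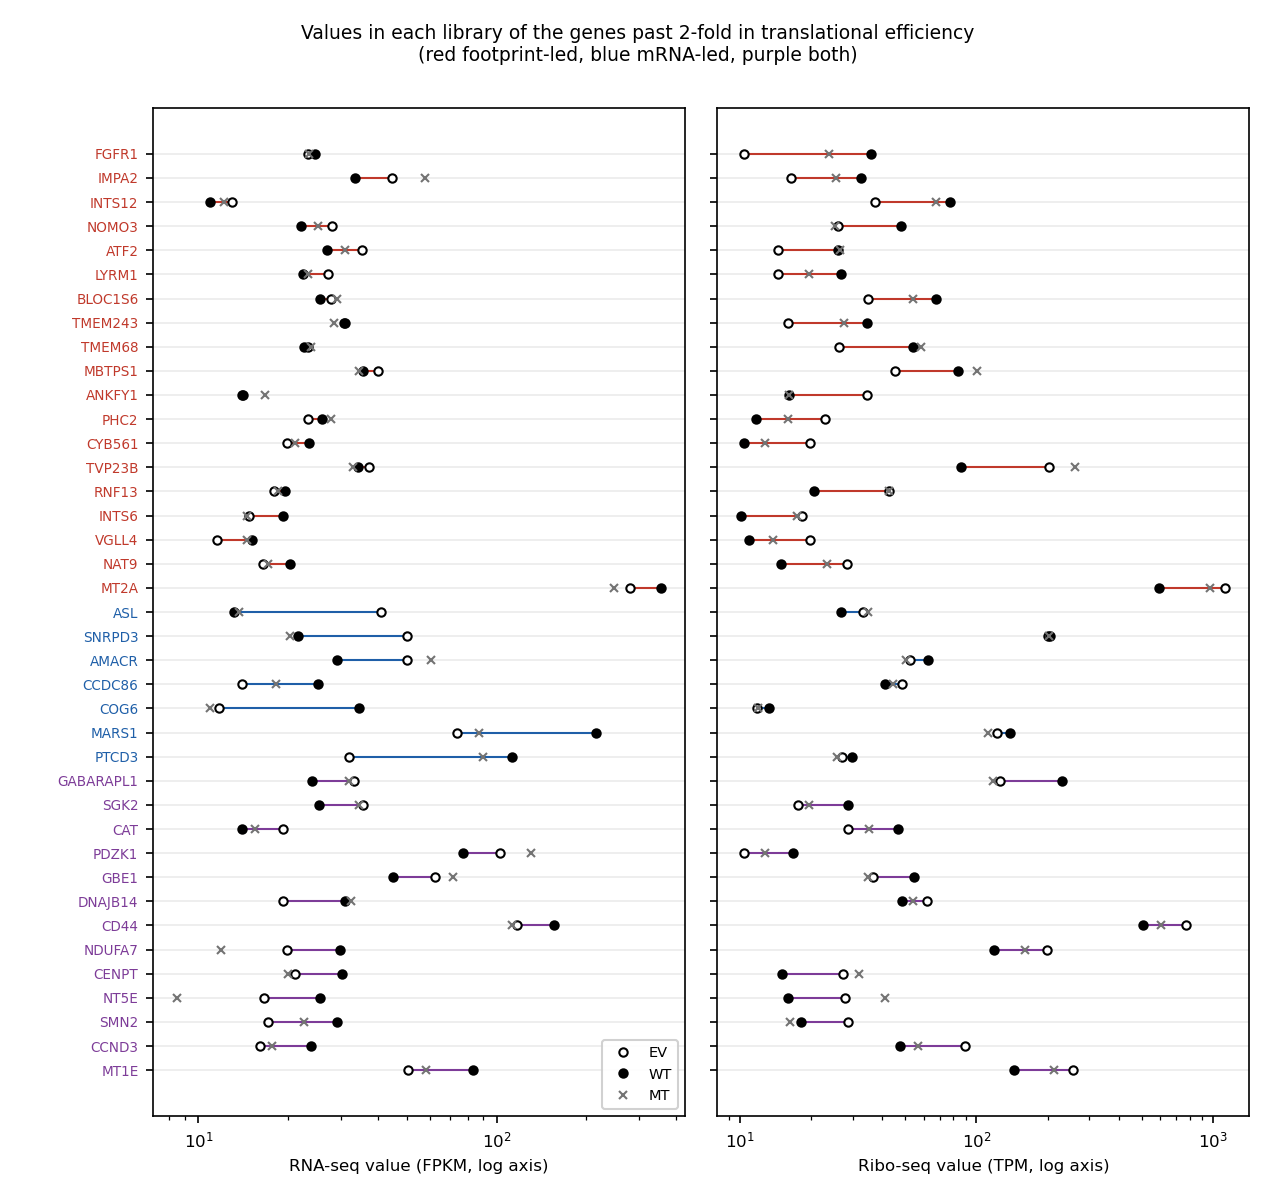
Value of each of the 39 genes past 2-fold in RNA-seq (left, FPKM) and Ribo-seq (right, TPM) on log axes, with EV as open circles, WT as filled circles and MT as crosses, 1 library each. Lines join EV and WT. They are long on the right for footprint-led genes (red), long on the left for mRNA-led genes (blue) and run in opposite directions for the 13 others (purple).

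In all 13 genes of the third class the assays differed in opposite directions, which the rule nearly fixes, since a gene with both assays on the same side would need a much larger difference in one of them. Among the 5 that were higher in efficiency, GABARAPL1, an ATG8-family protein of autophagosomes, had mRNA of 33.1 FPKM in EV against 24.0 in WT and 31.9 in MT. Its footprints were 126 TPM in EV against 229 in WT and 118 in MT. WT was the lowest library for mRNA and the highest for footprints, and the efficiency difference was 1.31.

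SGK2, a serum- and glucocorticoid-regulated kinase of kidney and liver, had mRNA of 35.7, 25.3 and 34.5 FPKM in EV, WT and MT and footprints of 17.6, 28.5 and 19.7 TPM. CAT, the peroxisomal catalase, had mRNA of 19.3, 14 and 15.5 FPKM and footprints of 28.8, 46.5 and 35.1 TPM. PDZK1, a scaffold of apical transporters in kidney tubule, had mRNA of 103, 76.9 and 131 FPKM and footprints of 10.4, 16.8 and 12.8 TPM. As with GABARAPL1, WT held the lowest mRNA and the highest footprint value of the 3 labels in each of these genes. GBE1, the glycogen branching enzyme, chosen after its values were seen, had mRNA of 62.0, 44.9 and 71.4 FPKM and footprints of 36.5, 54.7 and 35.0 TPM.

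Among the 8 that were lower in efficiency, CCND3, a D-type cyclin of the G1 phase, had mRNA of 16 FPKM in EV against 23.9 in WT and 17.6 in MT. Its footprints were 89.4 TPM in EV against 47.4 in WT and 56.4 in MT, and its efficiency difference was -1.45. CCND1, a D-type cyclin listed as a reference, was at -0.09, with mRNA of 68.8 and 62.2 FPKM and footprints of 135 and 114 TPM in EV and WT. CCND3 and CCND1 thus differed in this measure by more than 1 log2 unit, but CCND3 was named because it passed the 2-fold limit. NT5E, the surface ectonucleotidase CD73, had mRNA of 16.6 FPKM in EV against 25.5 in WT and 8.49 in MT and footprints of 27.7, 16 and 41.2 TPM. Its MT values lay on the far side of EV from WT in both assays.

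MT1E, another metallothionein, had mRNA of 50.6, 83.2 and 57.9 FPKM and footprints of 256, 144 and 212 TPM in EV, WT and MT, an efficiency difference of -1.54. SMN2 had mRNA of 17.1, 29.1 and 22.6 FPKM and footprints of 28.7, 18.2 and 16.3 TPM. Both have near-identical copies, other metallothioneins and SMN1, and are uncertain. The remaining 4 genes of this class were CENPT, NDUFA7, CD44 and DNAJB14, of which CENPT was named after its values were seen.

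CD44, the hyaluronan receptor, was the most abundant of them, with mRNA of 117 FPKM in EV against 156 in WT and 112 in MT and footprints of 766, 504 and 606 TPM. NDUFA7, a complex I subunit, had mRNA of 19.8, 29.8 and 11.9 FPKM and footprints of 199, 118 and 159.9 TPM. CENPT, a kinetochore protein, had mRNA of 21.1, 30.2 and 20 FPKM and footprints of 27.4, 15 and 32.0 TPM. DNAJB14, a J-domain co-chaperone of the endoplasmic reticulum membrane, had mRNA of 19.2, 31.0 and 32.4 FPKM and footprints of 61.9, 48.5 and 54.0 TPM. WT had more mRNA and fewer footprints than EV in all 4.

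Of the 13 genes past 2-fold in footprints, 6 stayed under the efficiency limit, each with mRNA on the same side, which the limits themselves fix. USP13, a deubiquitinase, had footprints of 11.3 TPM in EV and 26.5 in WT with mRNA of 16.4 and 25.9 FPKM, which left an efficiency difference of 0.53. ITCH, an E3 ubiquitin ligase, was just under it at 0.99, with footprints of 63.3 and 131 TPM (30.4 in MT) and mRNA of 38.1 and 39.5 FPKM. NOL12, MICAL2, SKA3 and NPDC1 likewise passed 2-fold in Ribo-seq and reached 0.98, 0.84, -0.96 and -0.81 in efficiency. These genes other than ITCH were picked after their values were seen. Just outside the limit with ITCH were CSRP2 and MRPL58, both at 1.0 after rounding, and just inside were AMACR, DNAJB14 (-1.01) and CD44 (-1.02). On the minimum, INTS6, FGFR1 and PDZK1 were nearest inside at 10.2, 10.4 and 10.4. ZNF544, TMEM168 and FXYD2 were nearest outside, with lowest values of 9.94, 9.59 and 9.55, and would have had efficiency differences of 1.34, 1.06 and 1.17.

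Over all members, footprint differences did not track mRNA differences between these libraries. The Pearson correlation across the 4825 genes was -0.02 and the Spearman correlation -0.02, with a slope of -0.03 footprint log2 units per mRNA log2 unit. At 100 or more in all 4 libraries, 573 genes, the values were 0.04 and 0.06. The genes share the same 4 libraries and are not independent replicates, so these are descriptions. Measurement error also brings a correlation and a slope nearer to none, and its size could not be measured without replicates. Whether footprints and mRNA are uncoupled in the cells was therefore not tested. The 38 genes with mRNA lower by 0.5 or more had a median mRNA difference of -0.60 and a median footprint difference of -0.04. The 26 genes with mRNA higher by more than 0.5 had medians of 0.59 in mRNA and -0.10 in footprints. The 2300 genes with mRNA within 0.1 of 0 had a median footprint difference of 0.04.

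**Figure D3:**
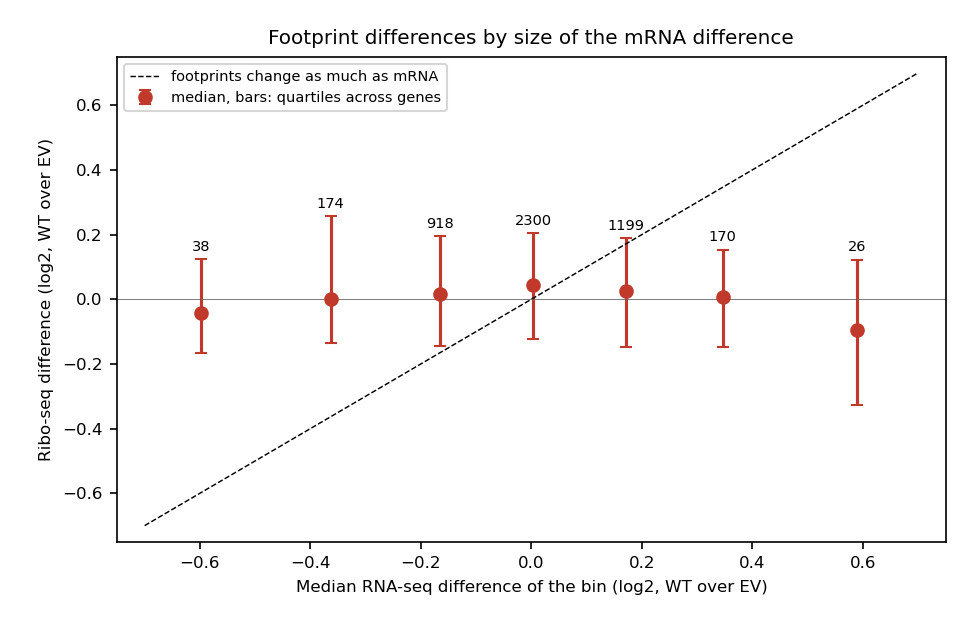
Median Ribo-seq difference (y axis) against median RNA-seq difference (x axis) of genes grouped in 7 bins by RNA-seq difference, WT over EV on the log2 scale, with bars for the quartiles across genes. The dashed line marks footprints that differ as much as mRNA. The medians lie between -0.10 and 0.04 in every bin.

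A difference was counted as followed where the other assay had the same sign and at least 0.5 times the size. Picking genes by a large difference in an assay also picks error in that assay, whose size was not measured. None of the 5 genes past 2-fold in mRNA was followed by footprints, although 4 had the same sign. Of the 34 genes past 1.5-fold in mRNA (0.705% of all), 14 higher (0.29%) and 20 lower (0.415%), 20 had footprints on the same side and 4 were followed, BOLA2, DDX19B, PGAM5 and USP13, named after their values were seen. DDX19B, a DEAD-box helicase of mRNA export, was the clearest, with mRNA of 22.2 FPKM in EV and 13.3 in WT and footprints of 55.7 and 32.2 TPM. BOLA2, an iron-sulfur cluster chaperone, had mRNA of 22.1 and 14.1 FPKM and footprints of 135 and 94.2 TPM. In the opposite sense, of the 196 genes past 1.5-fold in Ribo-seq (4.06%), 105 were higher (2.18%) and 91 lower (1.89%). Of the 196, 95 had mRNA on the same side and 4 were followed, CPSF2, DDX19B, RIPOR1 and USP13, named after their values were seen. Same-side counts are to be read beside all members. There the same-sign share was 38.5% to 57.9% across the bins of mRNA difference, and 49.6% in the middle bin. The followed share over all members was not computed.

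Calls were more frequent among genes with low values. Of the 1091 genes whose lowest of the 4 values was 10 to 15, 15 passed 2-fold (1.37%), and the standard deviation of their efficiency differences was 0.38. Of the 573 genes at 100 or more 2 passed (0.349%), MT2A and CD44, with a standard deviation of 0.26. The median lowest value was 16.5 among the 39 and 26.0 among all 4825. How much of each difference is counting error could not be measured without depth or replicates.

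Groups of genes were then described by their medians, set beside the 0.02 of all members, and by counts past 1.5-fold, which 7.73% of all members passed, 3.92% upward and 3.81% downward. The lists were chosen with earlier results of these libraries known, and their members share libraries. Medians of the efficiency difference are not the difference of the medians in each assay, so the assays are given separately. Of all 4825 members, 2565 (53.16%) had higher mRNA in WT and 2652 (54.96%) had higher footprints. The counts of higher and lower members in each list are to be read beside these shares.

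Ribosome biogenesis genes, which make and assemble ribosomal subunits in the nucleolus, were a group where mRNA carried the difference. Of 54 members 49 had higher mRNA in WT (median 0.24) while 26 had higher footprints (median -0.01), so 48 were below 0 in efficiency, with a median of -0.25. None passed 1.5-fold upward and 8 did downward. The abundant nucleolar proteins NPM1 and NCL were at -0.06 and -0.13. NPM1 had mRNA of 1029.5 FPKM in EV and 1160.5 in WT (1049 in MT) and footprints of 2246 and 2428 TPM (2161 in MT). RRS1, an assembly factor chosen after its values were seen, had mRNA of 23.1 and 32.3 FPKM and footprints of 69.2 and 59.6 TPM, an efficiency difference of -0.68.

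Translation elongation and release factors had the same form, with mRNA higher in 10 of 11 (median 0.15), footprints higher in 5 (median -0.02) and an efficiency median of -0.21. EEF1A1, which brings aminoacyl-tRNA to the ribosome, had mRNA of 3004 FPKM in EV and 3088 in WT (2811 in MT) and footprints of 3001 and 2637 TPM (2529 in MT), a difference of -0.23. EEF1G was at 0.05. Mitochondrial import genes had medians of 0.13 in mRNA, -0.06 in footprints and -0.18 in efficiency, with 20 of 26 below 0. HSPA9 and TOMM20, its most abundant members, were at 0.06 and -0.01, above the list's median. Cytosolic heat shock and chaperonin genes, in contrast, had higher mRNA (28 of 33, median 0.21) and higher footprints (24 of 33, median 0.14), and an efficiency median of -0.03. HSPA8, the constitutive heat shock cognate protein, was below its list at -0.43, with mRNA of 676 FPKM in EV and 893 in WT and footprints of 445 and 436 TPM.

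The ribosomal proteins themselves, whose mRNAs begin with the oligopyrimidine tract that mTOR acts on, lay close to the other genes in efficiency. The 46 large subunit and 32 small subunit members had medians of -0.03 each, with footprint medians of -0.13 and -0.14 and mRNA medians of -0.05 and -0.06. Of these 78 genes 1 passed 1.5-fold. RPS2, the most abundant small subunit mRNA, was at -0.35 and RPS24 at 0.21, and RPL12 was at 0.16 and RPL7A at -0.31, so single members spread on both sides of 0. The other 23 listed mRNAs with such a tract had a median of -0.09.

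The tract itself was read from RefSeq starts in GRCh38.p14, which is not the build named for these files, and only for the 2823 members with a single listed start. A start was counted when its first base is C and at least 5 bases from the first are all C or T, on the strand of the gene. The first 20 bases are shown to let the tract be seen, in capitals, for 4 mRNAs of the translation machinery that hold it and 2 other genes of ribosome rescue and recycling that do not.
EEF1A1 (chr6:73521013-73521032, minus strand): CTTTTTCgcaacgggtttgc
EEF2 (chr19:3985444-3985463, minus strand): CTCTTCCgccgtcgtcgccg
RPS6 (chr9:19380217-19380236, minus strand): CTCTTTTCCgtggcgcctcg
RPL13A (chr19:49487608-49487627, plus strand): CTTTTCCaagcggctgccga
ABCE1 (chr4:145098311-145098330, plus strand): accgccattttggccggtgg
HBS1L (chr6:135054803-135054822, minus strand): ggcgcagaggcctgcgggaa

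The efficiency differences were -0.23 for EEF1A1, -0.32 for EEF2, -0.03 for RPS6 and -0.07 for RPL13A, and -0.21 for both ABCE1 and HBS1L. These 6 genes were chosen by hand as examples of the sequence. They are too few to show whether efficiency differences go with the tract. Of the 2823 members 216 (7.65%) held it, against 880 of 22114 (3.98%) single-start genes in the whole RefSeq table, and 41 of 53 ribosomal proteins did. The 216 had medians of 0.00 in mRNA, 0.02 in footprints and 0.04 in efficiency. The 2607 without it had medians of 0.02, 0.03 and 0.02. Of the 216, 5 passed 1.5-fold upward and 3 downward. The start used in these cells was not measured.

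Immediate early genes, transcribed within minutes of a growth stimulus and encoding short-lived mRNAs, were a group with lower footprints. All 15 members had fewer footprints in WT (median -0.17), while 10 of 15 had more mRNA (median 0.10), and the efficiency median was -0.37 with 13 below 0. CCN1, a secreted matricellular protein, had footprints of 1002 TPM in EV against 786.5 in WT and 976 in MT, with mRNA of 108, 116 and 92.3 FPKM, an efficiency difference of -0.45. ZFP36L1, which promotes decay of AU-rich mRNAs, was at -0.32. FOSL1, a Fos-family partner of AP-1 chosen after its values were seen, was the lowest of the 3 at -0.77, with mRNA of 47.1 FPKM in EV and 75.4 in WT and footprints of 118 and 111 TPM.

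The 10 NF-kappaB and inflammatory members had an efficiency median of -0.46, with a footprint median of -0.28 and an mRNA median of -0.01. The abundant members lay well above that median, TNIP1 at -0.13 and SOD2, the mitochondrial superoxide dismutase, at -0.07. RELA, the p65 subunit, chosen after its values were seen, had footprints of 49.1 TPM in EV against 28.4 in WT and 45.2 in MT with mRNA of 26.0, 27.6 and 25.5 FPKM, an efficiency difference of -0.85. Of the 10, 3 passed 1.5-fold downward and 1 upward.

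Genes of G2 and M phase, which drive mitotic entry, spindle assembly and chromosome segregation, had an efficiency median of 0.22, and this came with footprints. Footprints were higher in WT in 43 of 51 members (median 0.27) and mRNA in 38 of 51 (median 0.06). PRC1, which bundles midzone microtubules, had footprints of 196 TPM in EV against 234 in WT and 198 in MT with mRNA of 243, 219 and 257 FPKM. TPX2, an activator of Aurora A, had footprints of 63.8, 78.9 and 70.2 TPM with mRNA of 240.4, 248 and 244 FPKM. TTK, a spindle checkpoint kinase chosen after its values were seen, was at 0.77, with footprints of 20.8 TPM in EV and 37.0 in WT. S phase and replication genes did not share this, with an efficiency median of -0.02 and 23 of 47 above 0. The share of cells in each phase was not measured.

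Peroxisome and fatty acid oxidation genes, a group close to the phytanic acid pathway of PHYH, had an efficiency median of 0.20 with 19 of 23 above 0. Footprints were higher in 16 of 23 (median 0.15) and mRNA lower in 18 (median -0.08). CAT and AMACR passed 2-fold, but with a pseudocount of 5 they were at 0.96 and 0.92, and AMACR, uncertain as given above, was at 0.99 after centring. HADHA and ETFA, the abundant mitochondrial members, were at 0.05 and 0.20. NRF2 targets had an efficiency median of 0.18, 18 of 25 being above 0, an mRNA median of -0.10 and a footprint median of 0.06. The ferritin subunits FTH1 and FTL, which belong to that list and carry iron-responsive elements, were at 0.13 and 0.31. FTH1 had mRNA of 1742 FPKM in EV and 1299 in WT (1700.1 in MT) and footprints of 503 and 409 TPM (459.8 in MT), lower in WT in both assays.

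Cholesterol and fatty acid synthesis genes had an efficiency median of 0.18, with 16 of 25 above 0. Their mRNA was lower in 19 of 25 (median -0.08) and their footprints in 14 of 25 (median -0.03). At a minimum of 30 in all 4 libraries the efficiency median was 0.06. SCD, the stearoyl-CoA desaturase, had mRNA of 147 FPKM in EV against 94.2 in WT and 106 in MT and footprints of 127, 127 and 120.1 TPM, so its 0.65 was an mRNA difference that footprints did not share. Nuclear oxidative phosphorylation genes had an efficiency median of 0.11, 46 of 72 being above 0, again with lower mRNA (52 of 72, median -0.07) and footprints at 0.00. ATP5F1B and COX4I1 were at -0.05 and -0.14, and NDUFA7 was the member past 2-fold, downward. The 13 mitochondrially encoded mRNAs had lower mRNA in 12 (median -0.24), footprints lower in 9 (median -0.04) and an efficiency median of 0.10. MT-CO1 had mRNA of 12177 FPKM in EV and 11039 in WT and footprints of 429 and 309.9 TPM, an efficiency difference of -0.33, and MT-CO2 was at -0.15. The MT-CO1 footprint values were far below its mRNA values in both libraries. How fully the protocol recovers footprints on mitochondrially encoded mRNAs was not measured, so their efficiency may not compare with that of the other lists.

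The list of Sm and LSm proteins, the cores of spliceosomal particles, also holds SNRNP70, a spliceosomal protein that is neither Sm nor LSm. The list had a median of 0.21 with footprints higher in 15 of 19 (median 0.15) and mRNA level (median 0.00). SNRPB was at -0.05 and SNRNP70 at 0.35, the latter with footprints of 111 TPM in EV and 164 in WT. SNRPD3, described above, was the member past 2-fold and differed from the group in that its mRNA carried the difference. Autophagy genes had an efficiency median of 0.09 and 4 of 19 past 1.5-fold upward with none downward. At a minimum of 30 in all 4 libraries the median was 0.34. GABARAP, a relative of GABARAPL1, had mRNA of 124 FPKM in EV and 90.1 in WT (112 in MT) and footprints of 727 and 898 TPM (913 in MT), an efficiency difference of 0.76. SQSTM1, the p62 cargo receptor, was at -0.36, so members did not all lie on one side.

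**Figure D4:**
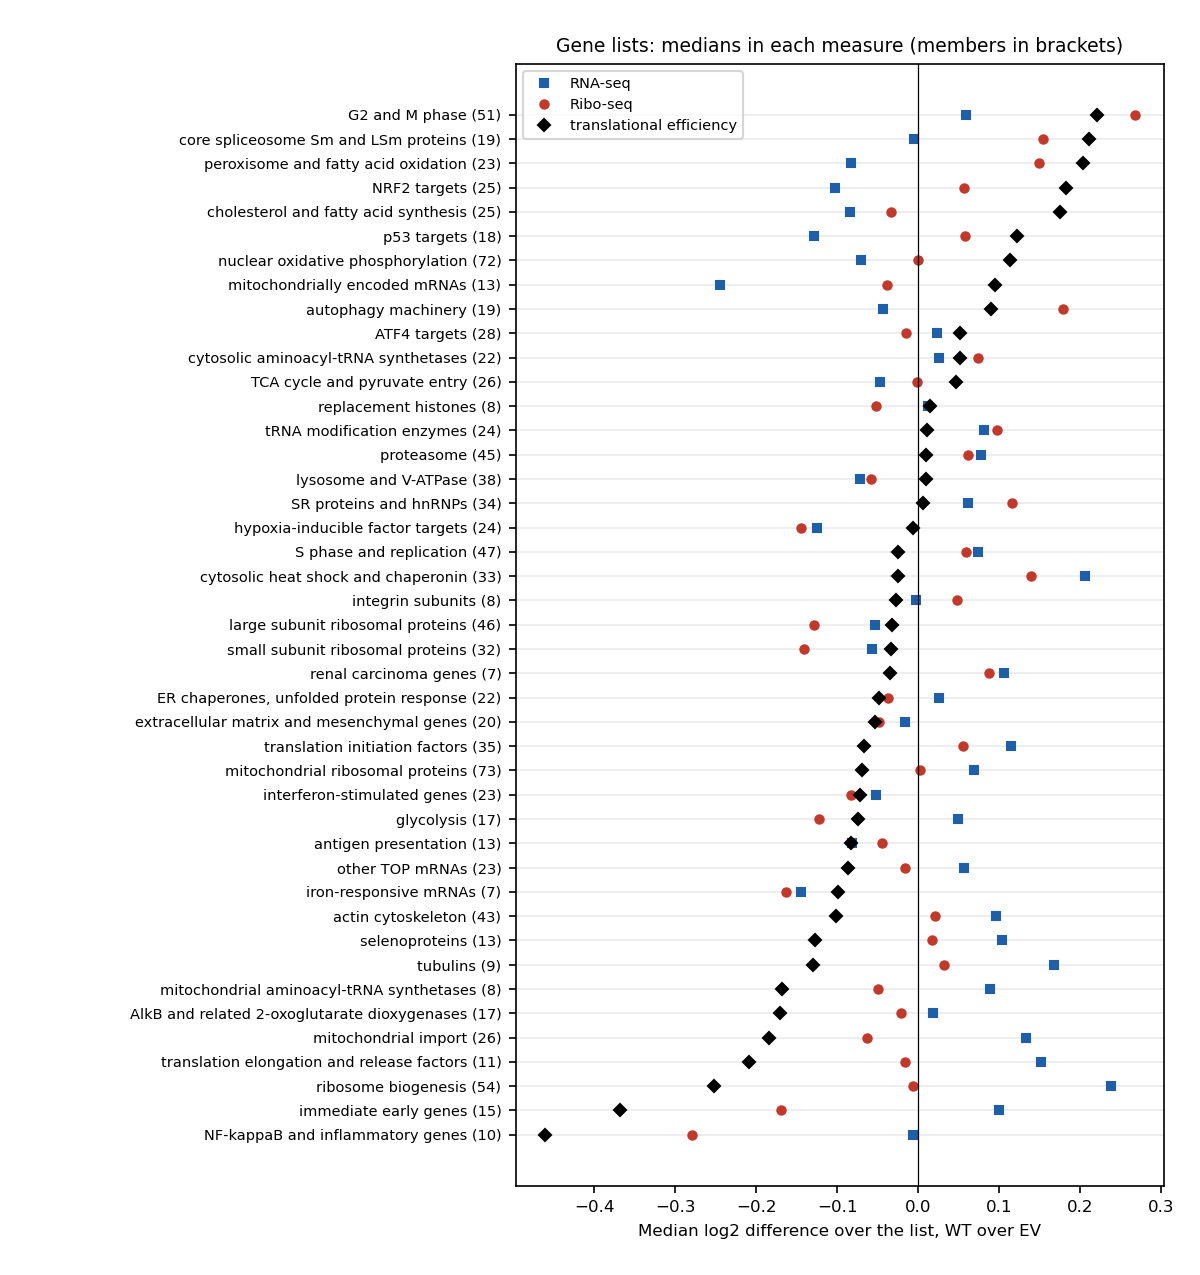
Median log2 difference, WT over EV, of each of the 43 gene lists with 5 or more members in RNA-seq (blue squares), Ribo-seq (red circles) and translational efficiency (black diamonds), ordered by efficiency, with the number of members in brackets. Ribosome biogenesis shows a high RNA-seq median beside a Ribo-seq median near 0, and G2 and M phase the highest Ribo-seq median.

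The 17 measured members of PHYHD1's own dioxygenase superfamily, which includes the AlkB demethylases and collagen hydroxylases, had an efficiency median of -0.17, with 11 below 0, 2 past 1.5-fold upward and 2 downward. PHYH, the phytanoyl-CoA hydroxylase most closely named with PHYHD1, was among the upper 2, at 0.63. Its mRNA was 28.0 FPKM in EV against 25.2 in WT and 30.6 in MT, and its footprints were 29.5, 41.7 and 31.3 TPM. WT was the lowest library in mRNA and the highest in footprints. ASPH and PLOD2, the most abundant members, were at 0.39 and 0.27.

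The reference genes that could be compared, GAPDH, ACTB, VEGFA and CCND1 (-0.09, given above), all had negative efficiency differences. GAPDH was at -0.03, with mRNA of 2303 and 2386 FPKM and footprints of 2801 and 2836 TPM in EV and WT. ACTB was at -0.55, with mRNA of 1619 and 1889 FPKM and footprints of 12118 and 9676 TPM. VEGFA, a hypoxia-inducible factor target, was at -0.80, with mRNA of 59.6 FPKM in EV and 63.7 in WT (46.5 in MT) and footprints of 36.3 and 21.9 TPM (32.2 in MT). LDHA and IGFBP3, the most abundant members of the list of such targets and not reference genes, stood on the other side. LDHA was at 0.56, with mRNA of 1228 and 1139 FPKM and footprints of 848 and 1163 TPM, and IGFBP3 was at 0.38. VHL and EPAS1 had footprint values under 10 TPM in both libraries and were not compared.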

How the data were processed

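RNA-seq and Ribo-seq libraries came from 786-O cells. TRIzol extraction, cycloheximide in the medium, RNase I digestion and removal of ribosomal RNA with antisense probes are stated per the labels' protocols. The submitters' processing notes name hg18. No aligner, counting method or annotation is given in the sources used here. The deposited RNA-seq values carry no unit in the file headers and were read as FPKM from their sums, though TPM over a larger set is possible. The deposited Ribo-seq values are TPM, since each column sums to 1000000. The Ribo-seq values thus set each library to a fixed total, whereas the RNA-seq sums differed, at 469859 in EV and 459938 in WT. Values of both kinds are scaled within a library and show no change in the total amount of mRNA or translation.

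Of 20307 rows, 605 had no gene name and were left out, 0.153% to 0.158% of each RNA-seq total and 0.513% to 0.564% of each Ribo-seq total. So were 7 symbols whose rows differed. Differences were taken on log2(value + 1), which understates those of low genes, in genes at 10 or more in 4 columns, and a gene was called at an absolute difference of 1. With 1 library per group no model was fitted. The design had allowed for other units, and its rule for normalized values applied. Genes were named by rule, the 10 highest and 10 lowest footprint-led, 6 and 6 mRNA-led and 4 and 4 of the others, the 3 nearest each limit, each list's 2 most abundant members and those past 2-fold, PHYHD1, PHYH and references. Others are marked, and 1 gene that the rule selects is not reported here. The members, the 44 lists (43 with 5 or more members, none for replication-dependent histones) and the class rule were chosen with earlier results of these data known. Scripts used Python 3.11.15 with pandas 2.3.3 and numpy 2.4.6 and were tested on simulated data. Alternatives were other pseudocounts, minimums and limits, centring, rescaling, another class ratio and leaving out near-identical copies and readthrough names (87 of the 4825).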

Additional observations from a re-analysis of the deposited data

How the results depend on the processing

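No paired analysis was possible because each label and assay has 1 library, and no replicate could be left out. None of the 39 genes changed sign under the pseudocounts, minimums, scalings and exclusions that were run, but these settings could hardly have changed a sign. Minimums and exclusions leave the value of a kept gene as it is, and centring and rescaling move it only slightly. The 39 genes past 2-fold in translational efficiency became 19 with a pseudocount of 5, all of them among the 39, 107 at a minimum of 5 (64 higher and 43 lower), 7 at a minimum of 30, 373 at 1.5-fold and 2 at 3-fold. The 13 in Ribo-seq became 3, 47, 3, 196 and 1 under the same settings. The 5 in RNA-seq became 12 at a minimum of 5, 1 at a minimum of 30, 34 at 1.5-fold and 1 at 3-fold. The 19 footprint-led genes became 8, 69, 3, 219 and 1, and the 13 genes of the both class became 6, 27, 3, 122 and 0. The 7 mRNA-led genes became 11 at a minimum of 5, 1 at a minimum of 30, 32 at 1.5-fold and 1 at 3-fold. Other minimums and limits change which genes are counted by construction. With no pseudocount 45 genes passed, after centring 38, after rescaling 39 and without copies and readthrough names 33. A class ratio of 0.33 gave 13 footprint-led, 7 mRNA-led and 19 both. Of the named genes 20 fell under the limit with a pseudocount of 5, and AMACR (0.99) with centring. The correlation of the assays stayed between -0.04 and 0.00. List medians shifted by 0.1 or more in 5 cases, all at a minimum of 30, where hypoxia-inducible factor targets went from -0.01 to 0.17, and by less in 291. Medians farther than 0.04 from 0 kept their sign. Depth is unknown, so differences of genes near 10 may not exceed counting error.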

Other observations

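Efficiency differences had unequal medians by chromosome among the 4052 members with a RefSeq chromosome, over the 22 chromosomes with 30 or more. Chromosomes 16 and 19 were lowest, with medians of -0.11 each over 191 and 243 genes, and 37.2% and 34.6% of their genes were above 0. This came with footprints, at medians of -0.11 and -0.10, while mRNA medians were 0.00 and 0.05. Chromosomes 15 and X were highest, at 0.11 (139 genes, 65.5% above 0) and 0.10 (136 genes, 61.0% above 0). Chromosome 17 had higher medians in both assays, 0.09 in mRNA and 0.09 in footprints, and 0.00 in efficiency over 248 genes. Chromosome 21 had the highest mRNA median, 0.15 over 37 genes, with 0.06 in footprints. The chromosomes were compared after the data were seen, and base composition, which differs between them, was not tested.

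Of the other metallothioneins, MT1X and MT1F had footprints above 10 TPM in EV and WT and both were lower in WT, while MT1G, MT1A, MT1B, MT1H and MT1M were under 1 in every library. MT1X had footprints of 66.8 TPM in EV against 48.8 in WT and 61.9 in MT, with mRNA of 11.3, 12.4 and 10.1 FPKM and an efficiency difference of -0.57. MT1F, under the minimum in RNA-seq at 1.76, 1.06 and 2.28 FPKM, had footprints of 21.3, 14.1 and 17.1 TPM. In MT2A, MT1E, MT1X and MT1F footprints were lowest in WT and highest in EV. These genes are near-identical in part, so they may share reads and are not independent.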
